A study of Mus musculus with 15 samples.

Results

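The mitochondrial genome of the mouse is a small circular molecule that encodes protein subunits of the respiratory chain, the ribosomal RNAs of the mitochondrial ribosome and transfer RNAs. Genes were taken as mitochondrially encoded where the Ensembl identifier mapped to a mouse symbol that starts with mt-. The annotation holds 37 such genes, and 16 of them were among the 36653 gene identifiers of the deposited expression table. The 16 are all 13 protein genes, both ribosomal RNAs (mt-Rnr1 and mt-Rnr2) and 1 of the 22 transfer RNAs, mt-Tp. The remaining 21 transfer RNAs were not analysed here.

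RNA was sequenced from heart ventricles of wild-type C57BL/6 mice that were 10 weeks old, after selection of polyadenylated RNA, in 3 groups of 5 mice labelled as biological replicates. Mice of the AngII plus OA group carried a subcutaneous pump that released angiotensin II at 1000 ng/kg/min and were given oleic acid daily at 160 mg/kg in 0.3 mL per mouse. Mice of the AngII group carried the same pump without oleic acid, and vehicle mice received saline. Angiotensin II is a peptide hormone that raises blood pressure and drives hypertrophy and fibrosis of the heart, and oleic acid is a monounsaturated fatty acid. The series asks whether oleic acid protects the heart from remodelling under angiotensin II.

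Mitochondrial DNA is transcribed from both strands as long precursor RNAs, which are then trimmed at the transfer RNAs that stand between most of the other genes. The protein products belong to complexes I, III and IV, which pass electrons to oxygen and pump protons, and to complex V, the ATP synthase. Heart muscle depends on fatty acid oxidation in densely packed mitochondria, and its RNA is rich in these transcripts. Most genes lie in the same direction, and the exceptions among the 16 are mt-Nd6 and mt-Tp, which are read the opposite way. Ribosomal and transfer RNAs carry short A tails or none in mammals, so a poly(A)-selected library need not sample them as it samples protein transcripts.

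The nuclear genome holds inserted copies of mitochondrial DNA, and several of the 16 genes have near-identical copies among the annotated nuclear transcripts. Of all runs of 50 bases within a gene, 100% were also found in annotated nuclear transcripts for mt-Co2, 99.9% for mt-Co3, 99.5% for mt-Atp6, 98.8% for mt-Nd4l and 98.0% for mt-Nd3. The shared portion was 62.2% for mt-Nd4 and 51.1% for mt-Co1, 8.19% for mt-Nd2, 7.61% for mt-Nd5 and 1.04% for mt-Rnr2. It was 0 for mt-Nd1, mt-Cytb, mt-Nd6, mt-Atp8, mt-Rnr1 and mt-Tp. The sequences below show the extreme case and a partial one. They are the sense strands from the GENCODE M21 transcripts (build GRCm38). The submitters' processing notes name another build, so no coordinates are given.

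The gene mt-Nd4l, on the mitochondrial molecule, encodes a small membrane subunit of complex I, and Gm10222 is an unprocessed pseudogene on chromosome 1. Gm10222 is identical to the first 294 of the 297 bases of mt-Nd4l, and the capitals mark the 3 bases of mt-Nd4l that lie past its end.
mt-Nd4l: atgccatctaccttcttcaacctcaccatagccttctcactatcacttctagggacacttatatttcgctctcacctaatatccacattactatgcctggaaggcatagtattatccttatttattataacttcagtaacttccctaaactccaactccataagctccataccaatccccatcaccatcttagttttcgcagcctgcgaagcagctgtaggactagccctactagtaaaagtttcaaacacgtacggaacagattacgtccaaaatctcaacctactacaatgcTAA
Gm10222: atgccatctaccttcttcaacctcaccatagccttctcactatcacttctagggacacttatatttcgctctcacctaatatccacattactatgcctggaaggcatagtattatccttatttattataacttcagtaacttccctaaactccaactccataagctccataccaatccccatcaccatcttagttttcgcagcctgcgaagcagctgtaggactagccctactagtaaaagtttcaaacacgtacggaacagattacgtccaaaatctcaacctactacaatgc

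The gene mt-Co1 encodes the catalytic subunit of complex IV. Gm29216 on chromosome 1 matches its last 492 bases with 6 differences, all of them in the stretch shown, which is bases 1054 to 1113 of mt-Co1 and bases 1 to 60 of Gm29216. Capitals mark the differing bases.
mt-Co1: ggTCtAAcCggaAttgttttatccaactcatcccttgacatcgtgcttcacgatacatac
Gm29216: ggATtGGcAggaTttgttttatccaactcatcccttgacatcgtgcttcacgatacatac

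A further copy of mt-Co1 on chromosome 2, Gm13340, spans all 1545 bases with 37 differences. The chromosome 1 copies of mt-Co2 (Gm28661, 681 bases), mt-Atp6 (Gm10925, 678 bases), mt-Co3 (Gm28437, 783 bases) and mt-Nd4 (Gm28439, 876 bases) had no difference over the aligned bases. The copy of mt-Nd3 (Gm28438, 345 bases) had 1 difference. The transfer RNA mt-Tp carries proline, and its 67 bases are shown whole because it is the only transfer RNA among the 16 genes.
mt-Tp: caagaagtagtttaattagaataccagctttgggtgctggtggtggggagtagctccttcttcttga

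The deposited values are FPKM, which count fragments relative to gene length and library total, so they compare genes per unit of length. The totals behind them were estimated here. In each library the most common low value of FPKM times gene length was taken as 1 fragment. The estimated totals were 24.5 to 28.3 M fragments per library. Every value of the 16 genes gave a whole number of fragments within 0.02. Among values of all genes above 0 and under 200 fragments, 89.4% did. Summed over all genes, the fragments came to 26.6 to 30.8 M per library, more than the totals. The reason was not tested, and the shares of fragments given below are taken of the estimated totals. All 16 genes passed the filter for testing, a mean of at least 0.5 FPKM over the 15 libraries, but mt-Nd4l passed through 1 vehicle library. As a check of the labelled tissue, 11 cardiomyocyte markers summed to 27970 to 37357 FPKM in 14 libraries. The library AngII replicate 2 stood apart with 17253 FPKM. Its 5 atrial muscle markers summed to 3019 FPKM, against 18.6 to 751 FPKM elsewhere, its adipocyte markers to 277 FPKM, against 0.216 to 81.5 FPKM, and its B cell markers to 53.3 FPKM, against 2.97 to 12.1 FPKM. Its part in the results was not tested, and values without it are given beside the shares and beside the changes it moved most.

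Levels of the 16 genes differed widely. The most abundant was mt-Co1 with a mean of 56748 FPKM over the 15 libraries. It was followed by mt-Cytb, the only mitochondrially encoded subunit of complex III, with 39533 FPKM, and by mt-Nd1, a membrane-arm subunit of complex I, with 35071 FPKM. The complex I genes mt-Nd2 and mt-Nd4 averaged 20384 and 19855 FPKM, and mt-Nd2 was the higher of the pair in only 6 of 15 libraries, so their order is within the spread. Then came mt-Nd6, the complex I subunit encoded on the opposite strand, with 11842 FPKM. The large ribosomal RNA mt-Rnr2 averaged 8878 FPKM and the small ribosomal RNA mt-Rnr1 7414 FPKM. The complex I gene mt-Nd5 averaged 6392 FPKM, mt-Tp 4999.7 FPKM and mt-Nd3, another complex I gene, 1446 FPKM.

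The remaining 5 genes lay far lower. The ATP synthase gene mt-Atp8 averaged 123 FPKM and mt-Atp6, the subunit that forms part of its proton channel, 76.8 FPKM. The complex IV genes mt-Co2, which holds the copper site that accepts electrons from cytochrome c, and mt-Co3 averaged 66.0 and 23.5 FPKM. Neighbours in this order were crossed in some libraries: mt-Atp6 was above mt-Co2 in 10 of 15, mt-Rnr1 above mt-Nd5 in 11 and mt-Nd6 above mt-Rnr2 in 12. Besides these and mt-Nd2 with mt-Nd4, neighbours kept their order in 14 or 15 libraries.

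**Figure D1:**
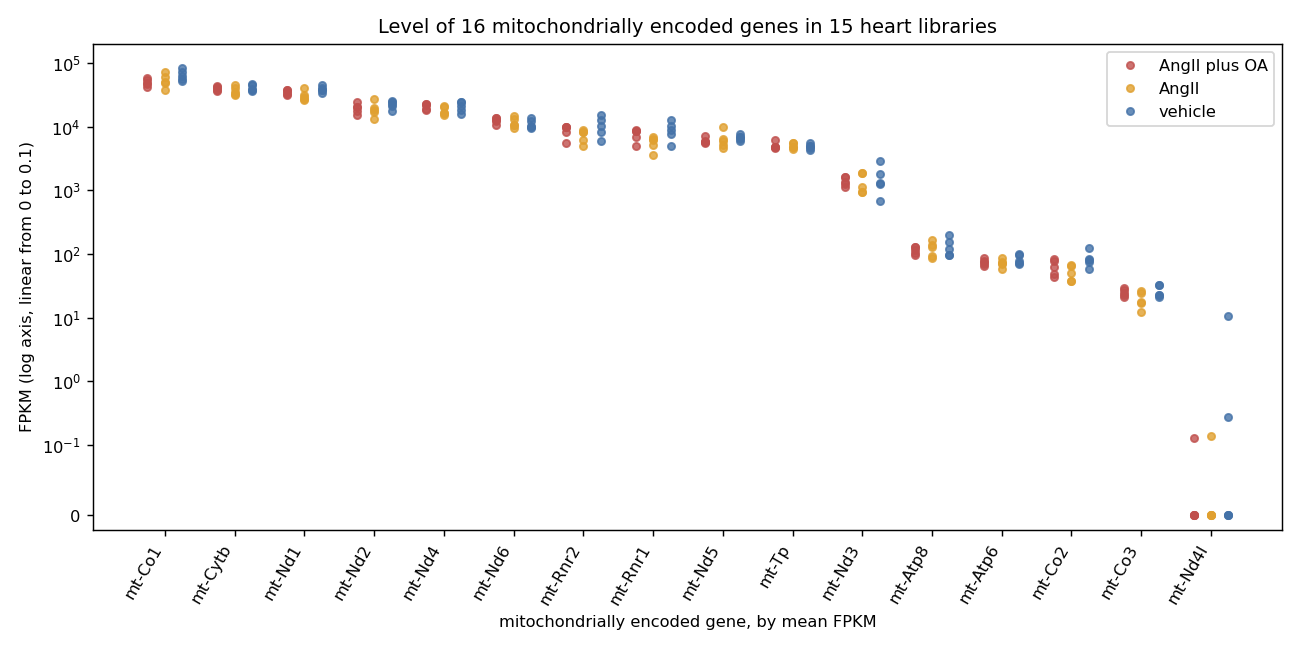
FPKM of each of the 16 genes in the 15 libraries, with genes ordered by mean FPKM along the x axis and FPKM on a log axis that is linear below 0.1; each point is a library. The 3 groups overlap for every gene, and mt-Nd4l lies at 0 in 11 libraries and at 10.6 FPKM in vehicle replicate 2.

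For mt-Nd4l no fragment was listed in 11 libraries. The others held 1 fragment in AngII plus OA replicate 3, 1 in AngII replicate 2, 77 in vehicle replicate 2 and 2 in vehicle replicate 5. The copy Gm10222 was above mt-Nd4l in 14 of 15 libraries, with a median of 1.38 FPKM and at most 2.49 FPKM. For no other gene but mt-Co3 was a listed copy higher in any library. In AngII replicate 1, mt-Co3 had 12.4 FPKM and its copy Gm28437 43.5 FPKM. The 5 genes with more than 90% of their sequence shared, mt-Nd3, mt-Atp6, mt-Co2, mt-Co3 and mt-Nd4l, together made up only 0.424% to 1.47% of the summed FPKM of the 13 protein genes.

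Level and sequence shared with annotated nuclear transcripts did not follow each other in every gene. The gene mt-Atp8 shared none of its 50-base runs and averaged 123 FPKM. The genes mt-Co1 and mt-Nd4 shared 51.1% and 62.2% and averaged 56748 and 19855 FPKM. Only annotated transcripts were searched, so a nuclear copy without annotation would not be counted. On the molecule, mt-Atp8 lies between mt-Co2 and mt-Atp6, whose chromosome 1 copies had no difference over the aligned bases. By position, mt-Atp8 shares its last 43 bases with mt-Atp6, mt-Nd4l shares 7 bases with mt-Nd4, and mt-Atp6 shares 1 base with mt-Co3. The genes mt-Nd5 and mt-Nd6 share 14 bases on opposite strands. How the counting treated fragments that match several places or overlapping genes, and whether it used strand, are not stated in the labels or the table. The levels of these genes are therefore uncertain, and the part of shared sequence or overlap in them was not tested. Without strand, reads of mt-Nd6 and mt-Tp cannot be told apart from RNA of the opposite strand.

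**Figure D2:**
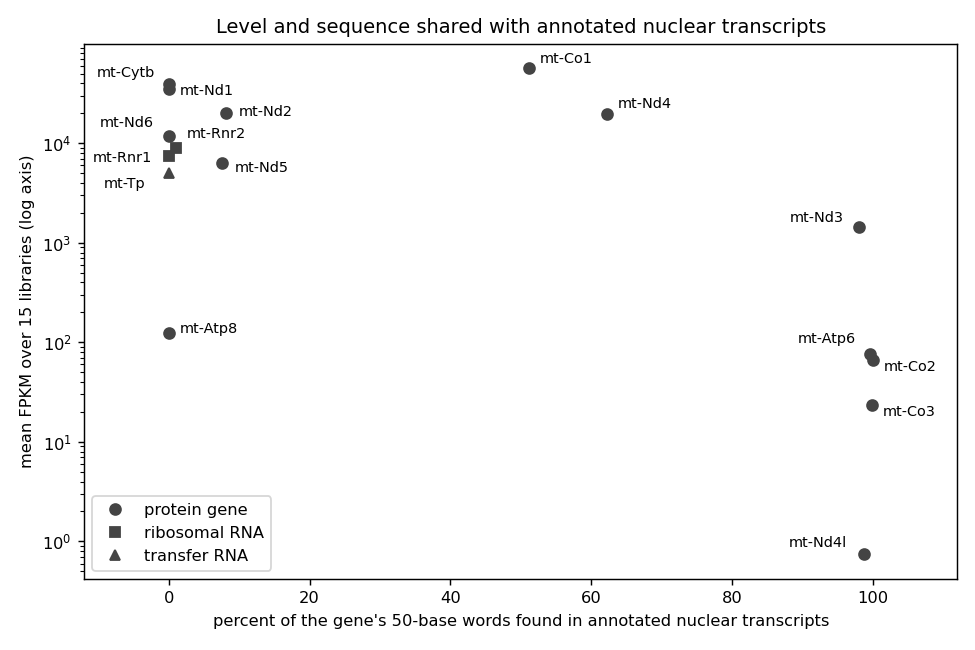
Mean FPKM over 15 libraries on a log y axis against the percent of each gene's 50-base runs that also occur in annotated nuclear transcripts; circles are protein genes, squares ribosomal RNAs and the triangle mt-Tp. Of the 5 genes at 98.0% or more, mt-Nd3 has the highest mean, 1446 FPKM, while mt-Atp8 with 0 shared averages 123 FPKM.

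Together the 16 genes took between 34.5% and 50.02% of all FPKM. Their share was 40.9%, 43.0%, 47.0%, 38.6% and 42.6% in AngII plus OA hearts, 38.0%, 48.3%, 42.8%, 34.5% and 41.9% in AngII hearts, and 45.3%, 45.8%, 44.6%, 50.02% and 49.5% in vehicle hearts. The means were 42.4% ± 3.10 in AngII plus OA hearts, 41.1% ± 5.20 in AngII hearts and 47.1% ± 2.52 in vehicle hearts (SD, n = 5 each). Of the AngII libraries, 4 of 5 were below the median of vehicle hearts, and the exception was AngII replicate 2, with the highest AngII share. Because the libraries are bulk RNA, fewer cardiomyocytes and less mitochondrial RNA per cell cannot be told apart.

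AngII hearts minus vehicle hearts differed by -5.94 percentage points, with a pooled SD of 4.09. The groups overlapped only through AngII replicate 2 at 48.3%. Without AngII replicate 2 the difference was -7.74 points. AngII plus OA hearts minus AngII hearts differed by 1.30 points (pooled SD 4.28). This difference was 3.09 points without AngII replicate 2 and -0.35 points without AngII replicate 4, which had the lowest share. AngII plus OA hearts minus vehicle hearts differed by -4.64 points (pooled SD 2.82). Here too the groups overlapped, through AngII plus OA replicate 3 at 47.0%. A sum over chosen genes was given no p-value. The comparisons share libraries, so they are not independent of each other.

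As a share of fragments, not scaled to gene length, the 16 genes took 24.6% ± 2.11 in AngII plus OA hearts, 23.5% ± 4.04 in AngII hearts and 28.3% ± 2.34 in vehicle hearts. The FPKM share divided into 38.1% protein genes in AngII plus OA hearts, 37.3% in AngII hearts and 42.1% in vehicle hearts. The 2 ribosomal RNAs took 3.33% in AngII plus OA hearts, 2.75% in AngII hearts and 3.92% in vehicle hearts. The transfer RNA mt-Tp took 1.03% in AngII plus OA hearts, 1.06% in AngII hearts and 0.993% in vehicle hearts. Protein and ribosomal shares did not follow each other in every library: AngII replicate 2 had the highest protein share of its group, 45.6%, with the lowest ribosomal share of all libraries, 1.66%. Vehicle replicate 4 likewise had 46.7% protein and 2.30% ribosomal share, the highest and lowest of the vehicle group.

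**Figure D3:**
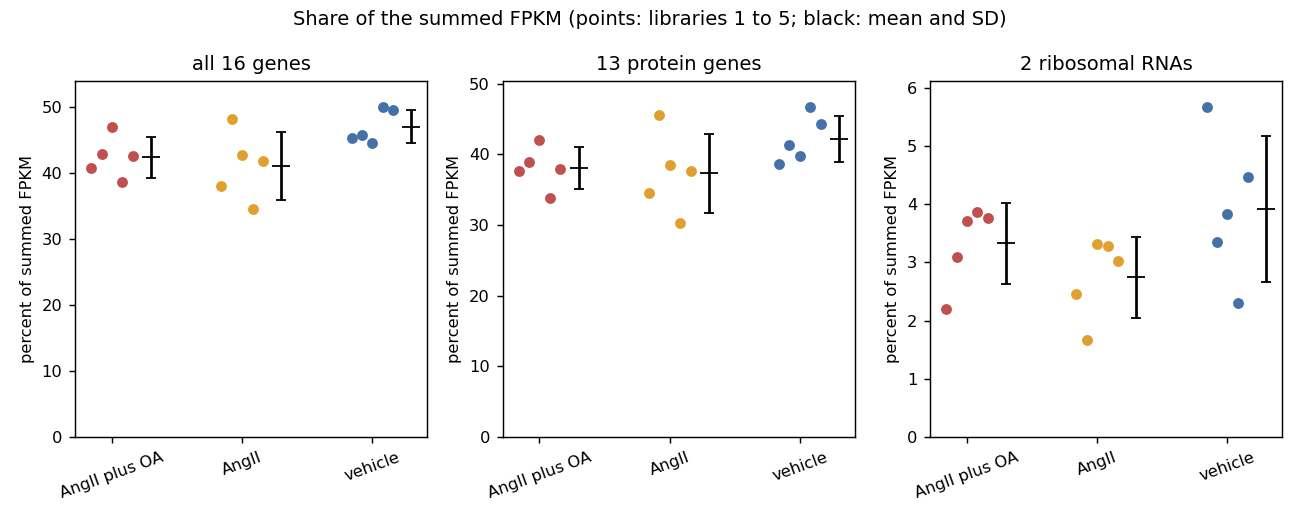
Percent of the summed FPKM of each library held by all 16 genes, by the 13 protein genes and by the 2 ribosomal RNAs; points are libraries 1 to 5 from left to right and black bars show mean and SD (n = 5). AngII plus OA and AngII hearts average 42.4% and 41.1%, against 47.1% in vehicle hearts, and the groups overlap in each panel.

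The nuclear-encoded sum is the rest of the denominator of that share. It was 281971 ± 12031 FPKM in AngII plus OA hearts, 280095 ± 17182 FPKM in AngII hearts and 262888 ± 14982 FPKM in vehicle hearts. Markers of other cells also differed between AngII and vehicle hearts. Of 8 fibroblast markers 4 passed the limma test described below and were higher in AngII hearts, as were 4 of 7 macrophage markers. Of all genes tested, 1.27% passed and were higher. Of 11 cardiomyocyte markers 0 passed (1 at an unadjusted p under 0.05). All 11 had a negative change, with a median log2 change of -0.15 against 0.07 over all genes. Without AngII replicate 2, 6 of the 11 were negative and 5 positive, with a median of -0.02 against 0.10. The summed fibroblast markers ranged from 759 to 1250 FPKM in AngII hearts and from 380 to 722 FPKM in vehicle hearts. The summed macrophage markers ranged from 221 to 368 FPKM in AngII hearts and from 154 to 205 FPKM in vehicle hearts. Their part in the share was not tested.

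Each gene was then tested in limma on log2(FPKM + 1) over all 13121 genes that passed the filter, with Benjamini-Hochberg adjustment over all of them. Between AngII and vehicle hearts none of the 16 genes passed an adjusted p of 0.05, against 1.5% of all genes tested. At an unadjusted p under 0.05 there were 4 of 16 (mt-Co2, mt-Nd1, mt-Rnr1 and mt-Co3), against 16.6% of all genes. No gene of the 16 had groups without overlap in FPKM, against 3.80% of all genes. In this comparison 14 of 16 changes were negative and the median log2 change was -0.23, against 0.07 over all genes. The negative changes include mt-Nd4l, which passed the filter through vehicle replicate 2, so its sign carries no information. Without that library mt-Nd4l was not tested, and 11 of 15 changes were negative, with a median of -0.15 against 0.08. With each library rescaled to its nuclear genes all 16 were negative, and under quantile normalization 10 were. With rescaling to the 13 protein genes 8 were negative. That scale is the sum of 13 of the 16 genes themselves, so it cannot show a change that they share.

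Among complex I genes, mt-Nd1 had 27656, 39984, 31030, 26627 and 29742 FPKM in AngII hearts and 37901, 37440, 34223, 41111 and 44963 FPKM in vehicle hearts. Of the AngII libraries 4 lay below every vehicle library, and AngII replicate 2 lay within the vehicle range. The log2 change was -0.34 (SE 0.13, limma adjusted p = 0.195), and without AngII replicate 2 it was -0.44 (limma adjusted p = 0.0682). The opposite-strand gene mt-Nd6 had 10576, 14639, 10493, 9691 and 13330 FPKM in AngII hearts and 12234, 13823, 10235, 10059 and 9385 FPKM in vehicle hearts. It was 1 of the 2 genes with a change above 0, at 0.07 (SE 0.15, limma adjusted p = 0.853), and this was -0.01 without AngII replicate 2. The other was mt-Tp, which averaged 5042 ± 471 FPKM in AngII hearts and 4923 ± 473 FPKM in vehicle hearts.

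The other abundant protein genes overlapped between groups as well. The complex III gene mt-Cytb averaged 40247 ± 3193 FPKM in AngII plus OA hearts, 36913 ± 5686 FPKM in AngII hearts and 41438 ± 4866 FPKM in vehicle hearts (SD, n = 5 each). For mt-Nd2 the means were 19741 ± 3427 FPKM in AngII plus OA hearts, 19143 ± 5075 FPKM in AngII hearts and 22267 ± 2956 FPKM in vehicle hearts. For mt-Nd4 they were 20804 ± 2024 FPKM in AngII plus OA hearts, 17857 ± 2493 FPKM in AngII hearts and 20903 ± 3782 FPKM in vehicle hearts. All 3 genes had their lowest mean in AngII hearts. For mt-Nd5 the means were 6032 ± 644 FPKM in AngII plus OA hearts, 6437 ± 2047 FPKM in AngII hearts and 6707 ± 647 FPKM in vehicle hearts, and the wide AngII spread came with 9844 FPKM in AngII replicate 2. Between AngII and vehicle hearts the log2 changes of these 4 genes lay between -0.25 and -0.11, with standard errors of 0.13 to 0.18. Without AngII replicate 2 the change was -0.27 for mt-Nd5 and -0.38 for mt-Nd2. Without AngII replicate 4 it was -0.12 for mt-Nd2 and 0.0028 for mt-Nd5.

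The groups also overlapped for mt-Nd3 and for both ATP synthase genes. The complex I gene mt-Nd3 averaged 1394 ± 214 FPKM in AngII plus OA hearts, 1356 ± 479 FPKM in AngII hearts and 1589 ± 834 FPKM in vehicle hearts, where it ran from 687 FPKM in replicate 4 to 2894 FPKM in replicate 2. The ATP synthase gene mt-Atp8 averaged 114 ± 15.1 FPKM in AngII plus OA hearts, 123 ± 33.4 FPKM in AngII hearts and 133 ± 43.3 FPKM in vehicle hearts. Its neighbour mt-Atp6 averaged 74.6 ± 7.5 FPKM in AngII plus OA hearts, 72.5 ± 10.3 FPKM in AngII hearts and 83.3 ± 14.3 FPKM in vehicle hearts. Coefficients of variation were smaller in AngII plus OA hearts than in either other group for each of these 3 genes, and this was not tested.

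Complex IV genes were lower on average in AngII hearts. The catalytic subunit gene mt-Co1 had 49279, 72688, 60018, 37835 and 49885 FPKM in AngII hearts and 52022, 57249, 63137, 84125 and 72904 FPKM in vehicle hearts, with a log2 change of -0.30 (SE 0.18, limma adjusted p = 0.421). Of the vehicle libraries 3 lay within the AngII range, and AngII replicate 2 was exceeded by only 2 vehicle libraries. For mt-Co2 the values were 37.6, 37.1, 50.9, 64.3 and 67.6 FPKM in AngII hearts and 57.5, 83.3, 75.2, 125 and 78.9 FPKM in vehicle hearts. Its log2 change was -0.69 (SE 0.23, limma adjusted p = 0.146), and 3 AngII libraries lay below all vehicle libraries. For mt-Co3 they were 12.4, 17.1, 17.7, 24.4 and 25.9 FPKM in AngII hearts and 22.8, 32.8, 20.7, 32.4 and 23.0 FPKM in vehicle hearts, with a log2 change of -0.44 (SE 0.19, limma adjusted p = 0.252). These last genes rest on 625 to 2290 and 257 to 680 fragments per library and share nearly all of their sequence with nuclear copies.

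The ribosomal RNAs had wide spreads. The small ribosomal RNA mt-Rnr1 had 5173, 3537, 6522, 6969 and 6291 FPKM in AngII hearts and 12712, 8750, 7784, 4935 and 10412 FPKM in vehicle hearts. All vehicle libraries but replicate 4 lay above every AngII library. The log2 change was -0.62 (SE 0.25, limma adjusted p = 0.229). The large ribosomal RNA mt-Rnr2 had 6245, 4891, 8822, 8302 and 8271 FPKM in AngII hearts and 15352, 8397, 10421, 6019 and 12982 FPKM in vehicle hearts, with a log2 change of -0.50 (SE 0.25, limma adjusted p = 0.328). The ratio of mt-Rnr1 to mt-Rnr2, which are processed from one precursor, varied less than either level. It was 0.876 ± 0.0336 in AngII plus OA hearts, 0.778 ± 0.0527 in AngII hearts and 0.848 ± 0.113 in vehicle hearts (SD, n = 5 each).

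Between AngII plus OA and AngII hearts the limma test called none of the 16 genes, and 0% of all genes tested. At an unadjusted p under 0.05 there was likewise none of the 16, against 6.6% of all genes. No gene had groups without overlap, against 1.27% of all genes. Of the 16 changes 11 were positive, with a median log2 change of 0.11 against -0.05 over all genes. All 16 were positive without AngII replicate 2, and between 9 and 13 without any other single library. Under quantile normalization 7 were positive and 6 negative.

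The small ribosomal RNA mt-Rnr1 had 5013, 6945, 8468, 8722 and 8970 FPKM in AngII plus OA hearts, and 3 of these libraries exceeded all AngII libraries given above. Its log2 change was 0.43 (SE 0.25, limma adjusted p = 0.751), and 0.27 without AngII replicate 2. For mt-Co3 the values were 22.3, 24.1, 20.9, 26.8 and 29.3 FPKM in AngII plus OA hearts, of which 2 exceeded all AngII libraries, and the log2 change was 0.36 (SE 0.19, limma adjusted p = 0.737). The opposite-strand gene mt-Nd6 had 12258, 12838, 13730, 10778 and 13555 FPKM in AngII plus OA hearts, all within the AngII range. Its log2 change was 0.12 (SE 0.15, limma adjusted p = 0.878), and 0.20 without AngII replicate 2.

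Between AngII plus OA and vehicle hearts the limma test again called none of the 16 genes and 0% of all genes, with none of the 16 and 3.36% of all genes at an unadjusted p under 0.05. No gene had groups without overlap, against 0.838% of all genes. Of the 16 changes 13 were negative, with a median log2 change of -0.15 against 0.02 over all genes. Again the negative changes include mt-Nd4l. Without vehicle replicate 2, through which mt-Nd4l passed the filter, 9 of 15 were negative and 6 positive. The median was then -0.08 against 0.03. Rescaled to the 13 protein genes, a scale that cannot show a change they share, 7 of 16 were negative. For mt-Co1 the values were 54754, 48015, 58984, 42691 and 47640 FPKM in AngII plus OA hearts, of which 3 lay below every vehicle library, with a log2 change of -0.37 (SE 0.18, limma adjusted p = 1.0). For mt-Co2 they were 76.3, 62.8, 49.1, 82.0 and 43.0 FPKM in AngII plus OA hearts, with a log2 change of -0.41 (SE 0.23, limma adjusted p = 1.0). The change of mt-Nd6 was 0.19 (SE 0.15, limma adjusted p = 1.0).

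**Figure D4:**
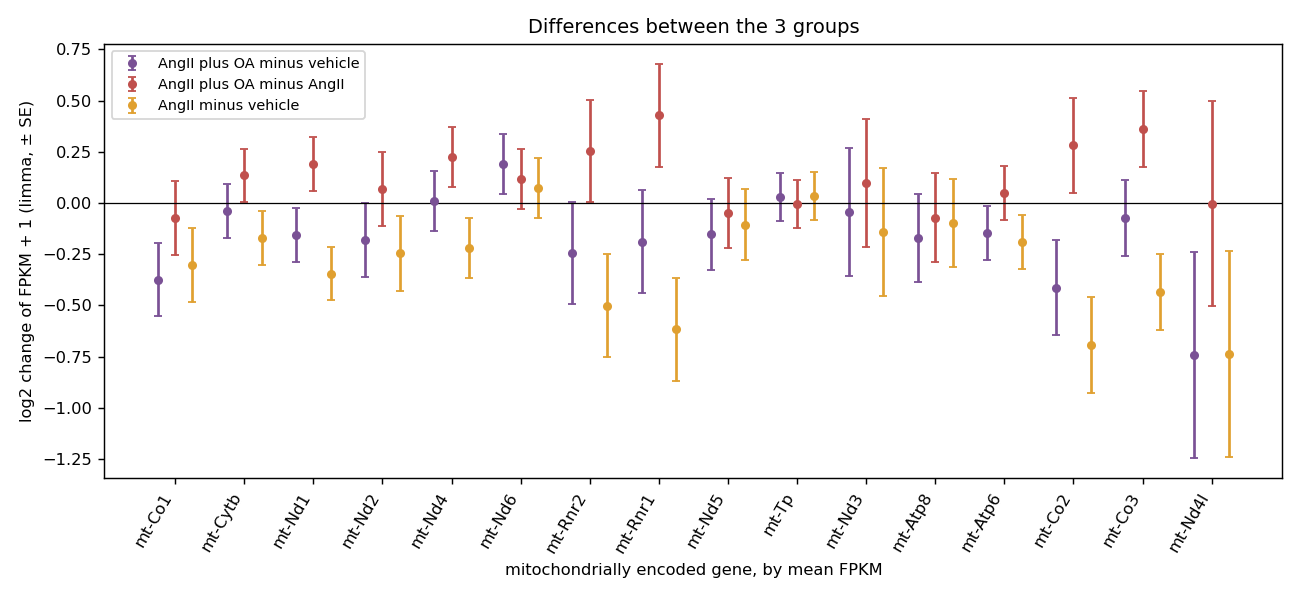
Log2 change of FPKM + 1 from limma with its standard error for each of the 16 genes, ordered by mean FPKM, in AngII plus OA minus vehicle, AngII plus OA minus AngII and AngII minus vehicle hearts. In AngII minus vehicle 14 of 16 points lie below 0, and no point passed an adjusted p of 0.05.

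A ratio to the summed FPKM of the 13 protein genes removes the share of mitochondrial RNA and shows the balance among them. By complex, the protein sum divided into 51.3% ± 1.43 complex I genes in AngII plus OA hearts, 49.1% ± 1.60 in AngII hearts and 48.7% ± 2.86 in vehicle hearts. The complex III gene mt-Cytb took 21.6% ± 0.896 in AngII plus OA hearts, 20.8% ± 1.34 in AngII hearts and 19.8% ± 1.85 in vehicle hearts. Complex IV genes, nearly all of it mt-Co1, took 27.0% ± 2.15 in AngII plus OA hearts, 30.0% ± 2.82 in AngII hearts and 31.4% ± 4.56 in vehicle hearts. Both ATP synthase genes together took 0.102% in AngII plus OA hearts, 0.111% in AngII hearts and 0.103% in vehicle hearts. Ratios of the abundant genes varied less between libraries than their FPKM: over all 15 libraries mt-Nd1 ranged 1.69-fold in FPKM and 1.21-fold as a ratio. The exceptions were mt-Nd4, at 1.60-fold in FPKM and 1.68-fold as a ratio, and mt-Nd6, at 1.56-fold and 1.81-fold.

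The ratio of each protein gene was compared between groups in 39 2-sided exact permutation tests, which cannot give a p below 0.00794 with 5 libraries against 5. Between AngII and vehicle hearts, 0 of 13 ratios had groups without overlap, against 7.1% of all genes tested on the same scale. None of the 13 had an exact p under 0.05, against 23.9%. The percentages of all genes, here and below, are not a like measure. The 13 genes are parts of the sum, while other genes are only divided by it. That sum averaged 178667 FPKM in AngII hearts and 209394 FPKM in vehicle hearts. Between AngII plus OA and AngII hearts, 0 of 13 were without overlap, against 0.625%, and 1 of 13 had an exact p under 0.05, against 5.16%. Between AngII plus OA and vehicle hearts, 1 of 13 was without overlap, against 1.45%, and the same gene was the only one with an exact p under 0.05, against 9.29%.

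That gene was mt-Nd6. Its ratio was 6.72%, 6.67%, 6.61%, 6.66% and 7.18% in AngII plus OA hearts, 6.59%, 6.32%, 5.88%, 6.89% and 7.32% in AngII hearts, and 6.39%, 6.52%, 5.42%, 4.52% and 4.04% in vehicle hearts. The AngII plus OA libraries were all above the vehicle libraries, but the lowest of them, 6.61%, was close to the highest vehicle library, 6.52%. The difference of the means was 1.39 points (6.77% ± 0.236 in AngII plus OA hearts and 5.38% ± 1.10 in vehicle hearts, exact permutation p = 0.00794, unadjusted, the smallest the design allows). AngII hearts averaged 6.60% ± 0.547, higher than vehicle hearts by 1.22 points (exact permutation p = 0.0635), and all 5 AngII libraries were above the vehicle median. When the sum was taken over the 6 protein genes with under 10% shared sequence, the AngII plus OA and vehicle groups of mt-Nd6 overlapped. The nearest analysed genes on either side of it are mt-Nd5 and mt-Cytb, both read the other way. Relative to mt-Cytb, mt-Nd6 stood at 0.314 ± 0.0151 in AngII plus OA hearts, 0.317 ± 0.0116 in AngII hearts and 0.271 ± 0.0436 in vehicle hearts. Relative to mt-Nd5 it stood at 2.10 ± 0.179 in AngII plus OA hearts, 1.88 ± 0.266 in AngII hearts and 1.68 ± 0.353 in vehicle hearts.

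The other ratio with an exact p under 0.05 was that of mt-Nd1 between AngII plus OA and AngII hearts. It was 18.2%, 19.7%, 18.0%, 19.2% and 18.9% in AngII plus OA hearts and 17.2%, 17.3%, 17.4%, 18.9% and 16.3% in AngII hearts. Only AngII replicate 4 reached the AngII plus OA range. The difference of the means was 1.39 points (18.8% ± 0.693 in AngII plus OA hearts and 17.4% ± 0.940 in AngII hearts, exact permutation p = 0.0317, unadjusted). Vehicle hearts averaged 18.7% ± 0.881. For mt-Cytb the difference between AngII plus OA and vehicle hearts was 1.78 points (exact permutation p = 0.0556), and for mt-Co1 it was -4.37 points (exact permutation p = 0.0794).

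**Figure D5:**
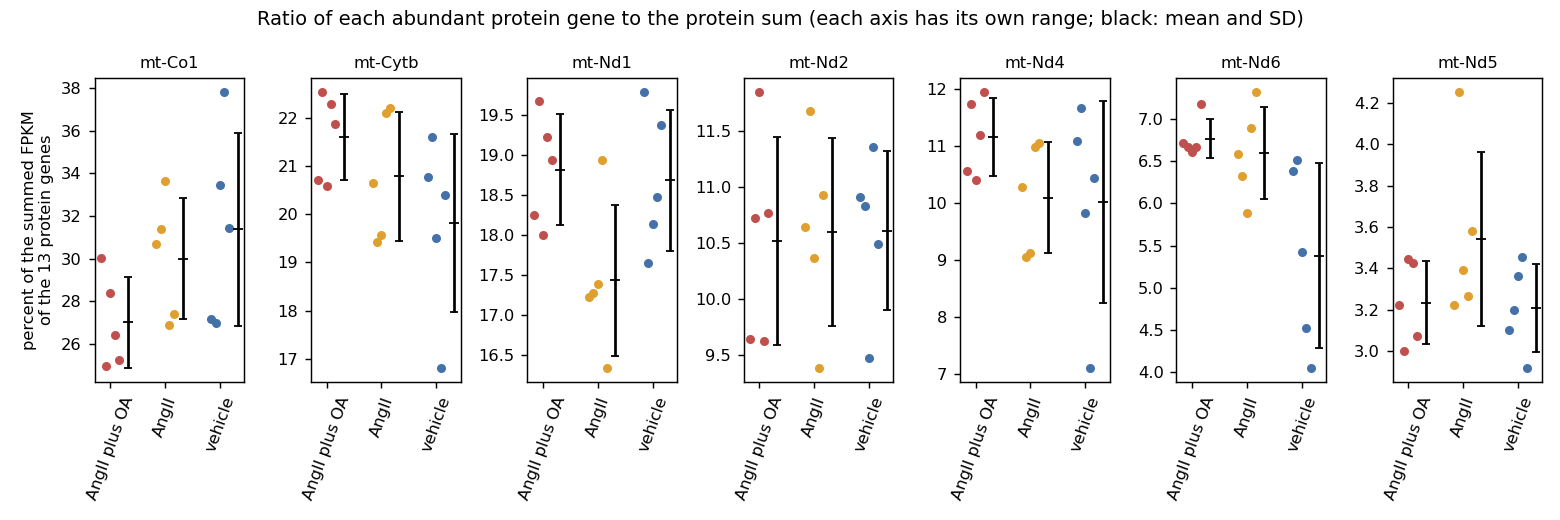
Percent of the summed FPKM of the 13 protein genes held by each of the 7 most abundant, by group, with a y axis of its own for each gene that does not start at 0; points are libraries 1 to 5 and black bars show mean and SD (n = 5). For mt-Nd6 the AngII plus OA libraries, from 6.61% to 7.18%, lie above the vehicle libraries, from 4.04% to 6.52%.

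Nuclear genes that make, process or work with these transcripts were read from the same fit. Of 17 genes for mitochondrial transcription and its regulators, 1 passed the test. Ppargc1b, a transcriptional coactivator of mitochondrial biogenesis, fell in AngII hearts to 1.05 ± 0.381 FPKM, against 1.97 ± 0.286 FPKM in vehicle hearts (log2 change -0.55, SE 0.12, limma adjusted p = 0.0335), where 0.236% of all genes were called lower. This call was lost in 11 of 18 alternatives, among them without AngII replicate 1, 4 or 5 and without vehicle replicate 2, 3, 4 or 5, with log2 changes from -0.89 to -0.39 and adjusted p up to 0.112. It was the only gene called in any of these lists in any comparison. Its relative Ppargc1a averaged 15.8 ± 4.54 FPKM in AngII plus OA hearts and 11.8 ± 3.01 FPKM in AngII hearts (limma adjusted p = 0.858). In vehicle hearts Ppargc1a averaged 22.8 ± 22.7 FPKM, with an SD close to the mean.

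No gene was called among 11 of mitochondrial DNA replication (limma, 0 at an unadjusted p under 0.05 in each comparison), 17 of RNA processing (at most 3 unadjusted), 16 of RNA stability (at most 1) and 77 mitochondrial ribosomal proteins (at most 1). Lonp1, a matrix protease that acts on nucleoid proteins, had 44.6 ± 6.02 FPKM in AngII hearts and 41.1 ± 5.20 FPKM in vehicle hearts. Hsd17b10, a subunit of mitochondrial RNase P, had 90.6 ± 6.80 FPKM in AngII hearts and 91.2 ± 7.44 FPKM in vehicle hearts. Grsf1, an RNA-binding protein of mitochondrial RNA granules, had 43.5 ± 10.3 FPKM in AngII hearts and 44.4 ± 12.3 FPKM in vehicle hearts. Mrpl42, a mitochondrial ribosomal protein, had 325 ± 41.6 FPKM in AngII hearts and 369 ± 28.9 FPKM in vehicle hearts.

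The nuclear subunits of the same complexes gave no call in any comparison (limma, at most 2 genes of a complex at an unadjusted p under 0.05). Between AngII plus OA and AngII hearts, the change was positive for 34 of 36 complex I subunits (median log2 change 0.16), 9 of 9 of complex III (0.21), 12 of 13 of complex IV (0.23) and 15 of 15 of complex V (0.21), against a median of -0.05 over all genes. Cardiomyocyte markers had a median of 0.28 in that comparison, positive for 11 of 11 with none called. AngII replicate 2 had the lowest sums of the AngII plus OA and AngII libraries for all 5 lists, with 6904 FPKM for complex I, 3187 FPKM for complex III, 9053 FPKM for complex IV, 4503 FPKM for complex V and the cardiomyocyte sum given above. Without it, in a fit chosen after the data were seen, 27 of 36, 8 of 9, 12 of 13 and 14 of 15 subunits of complexes I, III, IV and V were positive, with medians of 0.07, 0.09, 0.13 and 0.15 against -0.07 over all genes. Cardiomyocyte markers then had a median of 0.11, positive for 9 of 11. The most abundant subunit gene of complex IV was Cox6a2, a heart and muscle isoform, with 3580 ± 583 FPKM in AngII plus OA hearts and 2804 ± 406 FPKM in AngII hearts (log2 change 0.35, SE 0.24, limma adjusted p = 0.769). Vehicle replicate 4 had the lowest sums of all libraries for complexes I, III and IV, with 6081, 2933 and 6657 FPKM. Its part in the comparisons with vehicle hearts was not tested for these lists. Between AngII and vehicle hearts the medians were -0.03, -0.06, -0.05 and -0.07 for complexes I, III, IV and V, against 0.07 over all genes. Without AngII replicate 2 they were 0.05, 0.03, 0.01 and -0.02, against 0.10 over all genes. Between AngII plus OA and vehicle hearts, 32 of 36, 9 of 9, 13 of 13 and 14 of 15 subunits of complexes I, III, IV and V were positive. The medians were 0.12, 0.11, 0.16 and 0.12, against 0.02 over all genes. Cardiomyocyte markers had a median of 0.13 in that comparison, positive for 10 of 11. Of the listed nuclear copies of mitochondrial DNA 7 were tested and none was called, with a median log2 change of 0.08 between AngII and vehicle hearts and -0.25 between AngII plus OA and AngII hearts.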

How the data were processed

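The authors deposited 1 table of FPKM values for 15 ventricle libraries. The submitters' processing notes name HISAT2 2.0.4, an aligner, and mm8, a genome build. The sources used here do not name the counter, the annotation, the strand setting or the treatment of multiply mapped reads. The labels' sentence about Bowtie was not applied to these libraries. Symbols, gene lengths, overlaps and sequences came from GENCODE M21, which matched 36464 of 36653 identifiers. Multiplying FPKM by gene length and the estimated library total gave the fragments of each member.

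The members and gene lists were chosen with earlier results of these data known. All 13 protein genes, both ribosomal RNAs and mt-Tp are named. Of each nuclear list up to 4 called genes, or the 2 most abundant, could be named, and the copies with a mean of at least 0.5 FPKM. A few further values were chosen after they were seen. Each library counted as 1 replicate, because the labels name biological replicates. No 2 libraries of a group agreed within sampling noise (30 pairs, smallest chi-square per degree of freedom over the members 1041). With this many fragments, repeat libraries of 1 mouse could also differ by more, so the check cannot tell them from separate mice.

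Genes were tested on log2(FPKM + 1), in 1 fit of all 15 libraries by group, with limma 3.58.1 (trend option) under R 4.3.3. A fold change on this scale understates the change of low genes. Ratios and shares were computed in Python 3.11.15, and exact permutation tests with SciPy 1.17.1. The limma script was checked on simulated data. Alternatives were other pseudocounts, filters and scalings, a replicate block, only the 10 libraries compared, other sums, and each library left out. Precision is limited by the spread between mice.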

Additional observations from a re-analysis of the deposited data

Results flagged for a closer look

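In each group of 5, the highest or lowest library was set against the others for 90 combinations of gene, measure and group, and 9 stood apart by more than Dixon's 95% limit of 0.71 of the range; chance alone marks about 1 in 20. In AngII plus OA replicate 3, mt-Nd5 had 7162 FPKM, against 5540 to 5882 FPKM in the other AngII plus OA libraries, and mt-Tp had 6202 FPKM, against 4581 to 4876 FPKM. That library also had the highest share of mitochondrial FPKM of its group, 47.0%. In AngII plus OA replicate 5, mt-Nd6 was 7.18% of the protein sum, against 6.61% to 6.72% in the others.

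The remaining 6 concern mt-Nd4l, which was listed at 0 in most libraries, so that a single fragment sets a library apart. AngII plus OA replicate 3 had 0.126 FPKM (6.06e-05% of the protein sum) and AngII replicate 2 had 0.137 FPKM (5.91e-05%), each from 1 fragment. Vehicle replicate 2 had 10.6 FPKM (0.00498%) from 77 fragments, against 0 to 0.274 FPKM in the other vehicle libraries. No cause was tested.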

How the results depend on the processing

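None of the 16 genes was called in any of 60 limma fits (smallest adjusted p 0.0682). Of 285 alternative values for 15 named changes of mitochondrial genes, 276 kept their direction, 7 reversed and 2 were 0 (mt-Co1 under quantile normalization, in AngII and in AngII plus OA against vehicle). The change of mt-Nd6 between AngII and vehicle hearts turned negative with libraries shifted to 1 median (-0.0135), with rescaling to nuclear genes (-0.0190) and without AngII replicate 2, and ranged from -0.0118 to 0.154 without 1 library. In the same comparison mt-Nd2 was 0.0336 and mt-Nd5 0.0995 under quantile normalization. The change of mt-Nd5 was 0.138 with rescaling to the 13 protein genes, and from -0.272 to 0.00283 without 1 library (positive without AngII replicate 4). The cause of these reversals was not tested. The share kept within 1 pooled SD in 47 of 48 alternatives, a wide limit. For AngII plus OA minus AngII the pooled SD was 4.28 points and the difference 1.30 points. There -0.35 points without AngII replicate 4 counted as kept. Over the 9 genes with under 10% shared sequence, chosen after seeing the data, AngII plus OA minus vehicle was -1.64 points. Over the same genes AngII minus vehicle was -3.41 points. Counts of ratios without overlap were 0 to 1 between AngII and vehicle, and 0 to 1 between AngII plus OA and AngII, without 1 library (1 without AngII replicate 4). Between AngII plus OA and vehicle the count was 0 with the sum over 6 low-shared genes, also chosen after seeing the data. Replicate numbers did not pair the libraries (same-number correlations from -0.35 to 0.43; 3 of 15 were the best match), and with a replicate block 3 ratios moved one way in all 5 same-number differences between AngII plus OA and AngII. The count of all genes called between AngII and vehicle, 197, was 38 with the block, 72 with no filter, 109 under quantile normalization, 114 rescaled to nuclear genes, 70 in the 10 libraries alone, 687 rescaled to the 13 protein genes and 49 to 427 without 1 library. That last rescaling moved the median log2 change of all genes to 0.26 between AngII and vehicle, -0.11 between AngII plus OA and AngII and 0.15 between AngII plus OA and vehicle. For mt-Nd4l, at most 2 fragments were listed outside vehicle replicate 2; the cause was not tested.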
